A study of Homo sapiens with 6 samples.

Results

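Transcripts of 10 genes of the circadian clock were followed in human bile duct cells given TGF-beta. They were the E-box repressor genes BHLHE40 and BHLHE41, the period genes PER2 and PER3, the cryptochrome genes CRY1 and CRY2, the activator genes ARNTL and CLOCK, and the output factor genes DBP and TEF. Members were taken by gene name from the reference chromosomes of a table of 64253 genes, and all 10 were found, each in a single row. All 10 passed the filter on low counts, as did 20992 genes of the table in all. The cells were H69, a human cholangiocyte line (biliary epithelium) immortalised with SV40 large T antigen, at passages 30 to 32 in its usual growth medium. Of 6 RNA sequencing libraries, 3 came from cells given vehicle and 3 from cells given recombinant human TGF-beta (10 ng/ml), with a treatment of 16 h. The labels do not name the TGF-beta isoform, the composition of the vehicle or the time of day at collection. Nor do they say whether replicates were grown apart, and p-values then measure only how these libraries vary, which may be technical. Each condition was sampled at 1 time only, so rhythm, phase and amplitude were not measured.

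The molecular clock is a feedback loop of transcription that runs in most cells with a period of about a day. ARNTL, now named BMAL1, and CLOCK encode bHLH-PAS proteins that pair and activate genes through E-box elements, among them the PER and CRY genes, whose proteins return to the nucleus and repress the pair. BHLHE40 and BHLHE41 encode repressors that occupy the same E-boxes, and BHLHE40 is also known as a gene induced by hypoxia and by cytokines. DBP and TEF encode PAR bZIP factors that carry rhythm to downstream genes through D-box elements. A further loop joins the REV-ERB repressors (NR1D1, NR1D2) and the ROR activators, which compete for elements at ARNTL. TGF-beta, a cytokine known for driving matrix production in fibrosis, signals through SMAD transcription factors.

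Total counts ranged from 37205862 to 54160521 per library, so 1 CPM (counts scaled to a common library size, with TMM factors) stood for 35.7 to 56.2 reads. Vehicle replicate 1 stood apart from the other vehicle libraries, at 36.6 on the second principal component (11.6% of the variance) against -14.9 and -18.7, and results that rest on it are given with and without it. SMAD7, PMEPA1, SKIL and FN1, used as a check of the treatment, all rose, by 1.95 to 2.87 on the log2 scale. They were chosen with earlier results of these data known, so their rise is not an independent check. Of 5 cholangiocyte markers, KRT7 (called higher) and KRT19 (not called) were abundant, and EPCAM, SOX9 and CDH1 were present and called lower with TGF-beta. Their sum was 1950 to 2504 CPM under vehicle and 3268 to 3617 CPM under TGF-beta, and was mostly KRT7 (means of 1538 and 2966 CPM), the only one of the 5 called higher. Summed levels of 5 fibroblast and stellate cell markers were 66.6 to 79.5 CPM under vehicle and 135 to 146 CPM under TGF-beta, most of it PDGFRB, with LUM and DES near 0. PDGFRB was called higher (log2 1.02), PDGFRA was called lower (log2 -0.72) and DCN was not called. Of 4 hepatocyte markers ALB, APOA1 and TTR were near 0, and their sum, 59.0 to 62.4 against 71.8 to 74.0 CPM, was nearly all SERPINA1. Sums of 3 endothelial markers were 1.55 to 2.20 against 1.06 to 1.26 CPM, and those of 4 leukocyte markers 5.14 to 6.73 against 2.32 to 2.76 CPM, nearly all CD14, with PTPRC at most 0.135 CPM. The part of these markers in the results below was not tested.

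Promoter sequence is shown first for the genes on which the comparison turns, taken from the RefSeq promoter table (GRCh38.p14), in which all 10 genes were matched. Capitals mark the E-box CACGTG, the related E-prime box CACGTT, the D-box TTATGTAA or TTACGTAA, and the ROR half-site AGGTCA or GGGTCA, searched on both strands, so that CACGTT may read AACGTG. Each stretch but the last runs from position -250 to position 30 around a RefSeq transcript start, 5′ to 3′ on the gene's strand. BHLHE40 (chr3:4979187-4979466, plus strand) and BHLHE41 (chr12:26125008-26125287, minus strand) are shown as close relatives with different calls.
BHLHE40: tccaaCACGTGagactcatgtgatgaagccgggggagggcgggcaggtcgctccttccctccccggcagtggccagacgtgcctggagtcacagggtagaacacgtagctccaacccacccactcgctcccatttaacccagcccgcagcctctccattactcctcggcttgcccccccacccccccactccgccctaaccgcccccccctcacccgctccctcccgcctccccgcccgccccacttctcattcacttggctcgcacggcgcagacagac
BHLHE41: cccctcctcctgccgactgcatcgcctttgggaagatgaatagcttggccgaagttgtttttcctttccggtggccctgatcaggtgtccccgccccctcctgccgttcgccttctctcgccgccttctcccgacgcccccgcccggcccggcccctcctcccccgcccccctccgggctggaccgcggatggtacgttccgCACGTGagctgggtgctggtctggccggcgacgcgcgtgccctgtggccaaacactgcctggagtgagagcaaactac

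PER2 (chr2:238288581-238288860, minus strand) and PER3 (chr1:7784041-7784320, plus strand) are shown because both hold a D-box, the element read by DBP and TEF. Within the table's gene bounds, the printed stretches of BHLHE40, PER2, CRY1 and ARNTL lie wholly inside the gene, and those of BHLHE41, PER3 and TEF reach beyond its outermost annotated start.
PER2: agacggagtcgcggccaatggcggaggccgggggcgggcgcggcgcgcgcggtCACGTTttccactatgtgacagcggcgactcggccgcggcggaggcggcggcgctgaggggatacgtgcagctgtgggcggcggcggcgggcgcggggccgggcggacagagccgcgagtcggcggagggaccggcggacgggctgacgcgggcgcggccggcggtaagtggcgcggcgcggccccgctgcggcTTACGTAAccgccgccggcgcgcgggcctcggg
PER3: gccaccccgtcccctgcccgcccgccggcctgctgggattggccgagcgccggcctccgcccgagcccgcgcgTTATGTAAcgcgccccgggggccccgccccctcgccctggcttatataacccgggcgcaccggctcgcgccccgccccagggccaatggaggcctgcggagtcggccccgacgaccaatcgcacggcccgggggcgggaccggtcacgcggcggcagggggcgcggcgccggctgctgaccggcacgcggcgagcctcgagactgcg

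TEF (chr22:41367205-41367484, plus strand) is shown as the member with the largest fall and CRY1 (chr12:107093520-107093799, minus strand) as a cryptochrome gene that rose. The last line gives 30 bases around the ROR half-site at position 32 of ARNTL (chr11:13277804-13277833, plus strand).
TEF: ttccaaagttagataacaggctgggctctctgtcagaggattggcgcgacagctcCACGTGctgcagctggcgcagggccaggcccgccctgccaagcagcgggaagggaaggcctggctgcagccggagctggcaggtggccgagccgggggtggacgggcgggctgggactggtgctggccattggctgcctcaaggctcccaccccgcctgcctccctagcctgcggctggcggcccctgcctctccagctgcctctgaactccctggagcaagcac
CRY1: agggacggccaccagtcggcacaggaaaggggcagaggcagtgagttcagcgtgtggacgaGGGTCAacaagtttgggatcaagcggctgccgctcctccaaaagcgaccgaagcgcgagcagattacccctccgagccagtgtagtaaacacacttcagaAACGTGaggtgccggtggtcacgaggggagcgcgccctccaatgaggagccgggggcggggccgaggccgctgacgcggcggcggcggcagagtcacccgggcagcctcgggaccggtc
ARNTL: tagggaaggcagaaagtAGGTCAgggacgg

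An E-box was found in the windows of 3 of the 10 genes, at position -245 of BHLHE40, position -48 of BHLHE41, and in each of the 2 windows of TEF. Over all 35116 promoter windows of this length in the table, 7.26% held an E-box. An E-prime box was found in 4 genes (PER2, CRY1, CRY2 and CLOCK) against 5.34% of windows, a D-box in 2 (PER2 at position -3 and PER3 at position -177) against 1.01%, and a ROR half-site in 4 (ARNTL, CLOCK, CRY1 and CRY2) against 25.6%. Several members have 2 windows in the table, so shares of genes and of windows are not on the same footing. For SMAD proteins, the palindrome GTCTAGAC was in none of the 10 genes (0.202% of windows) and the CAGA box CAGACA in BHLHE40, at position 22, and ARNTL (16.9%). The cyclic AMP element TGACGTCA was in none (1.85%), and the hypoxia element ACGTGC was in 5 (6.89%), where in BHLHE41, CLOCK and TEF it overlaps the E-box or E-prime box. DBP held none of these motifs in its window. These matches are descriptions of sequence, and no binding was measured.

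Of the 10 genes, BHLHE40, ARNTL and CRY1 rose with TGF-beta, PER3, DBP and TEF fell, and BHLHE41, PER2, CRY2 and CLOCK were not called (edgeR's quasi-likelihood test, adjusted p under 0.05 over all genes tested). Calls in either direction covered 40.1% of all genes tested, 19.7% higher and 20.4% lower, and the libraries of vehicle and TGF-beta were separate in CPM for 52.3% of all genes and for 6 of the 10 members, the same 6 that were called. Calls past 2-fold covered 4.78% of genes on the higher side and 3.59% on the lower, and were made for BHLHE40 and ARNTL higher and TEF lower. With a background this high, the count of called members is not in itself a result about clock genes. The median log2 fold change was -0.10 for the members and -0.01 for all genes tested. In bulk RNA a lower level of a transcript per cell cannot be told apart from fewer cells that express it. All 3 rises and 3 falls were also called in every alternative in which the gene was tested. PER2 was also called lower without vehicle replicate 1, CLOCK without vehicle replicate 3, and both with library totals in place of TMM scaling, which gave 3 members higher and 5 lower.

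**Figure D1:**
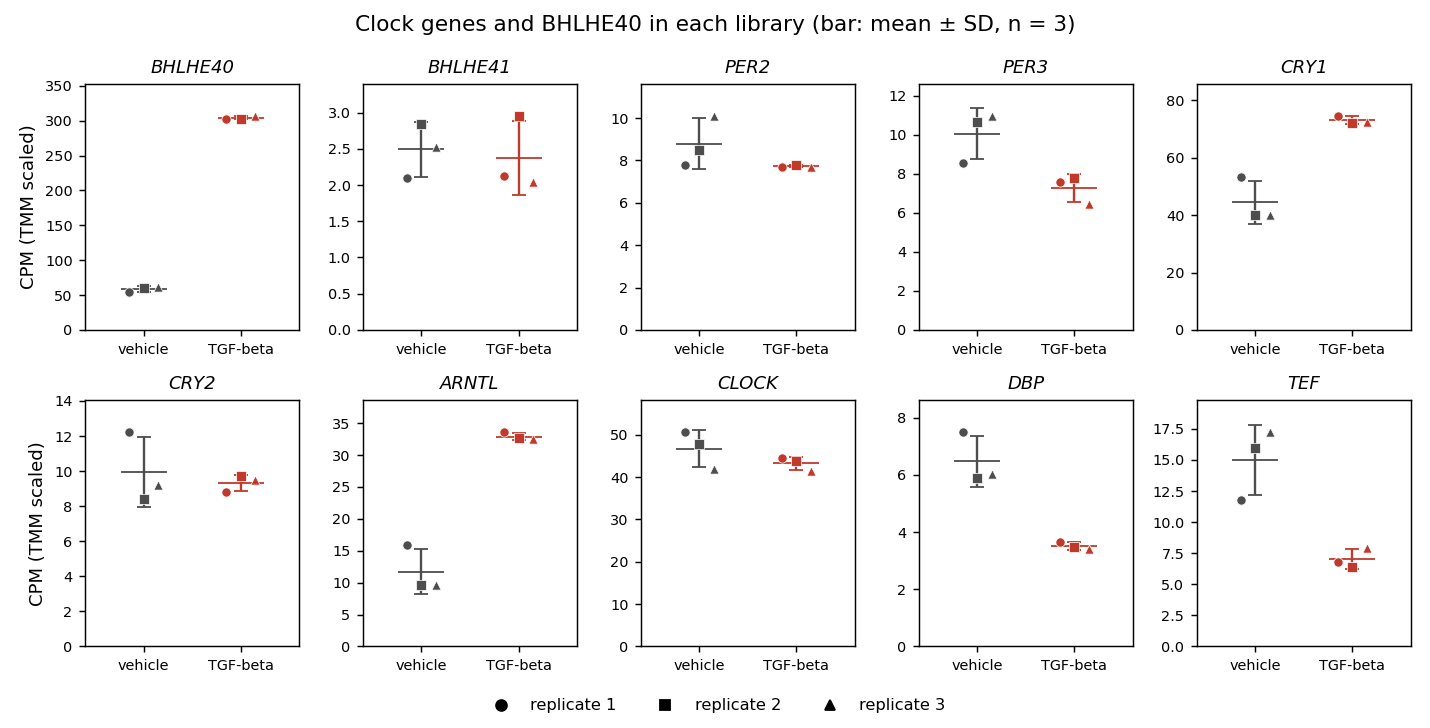
Level of each of the 10 genes in CPM after TMM scaling (vertical axes from 0, a scale of its own per gene) in vehicle and TGF-beta libraries, with a symbol per replicate and bars for mean ± SD (n = 3). BHLHE40, ARNTL and CRY1 lie higher with TGF-beta without overlap, PER3, DBP and TEF lower without overlap, and the other genes overlap.

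BHLHE40, the E-box repressor gene (ENSG00000134107, hg38 chr3:4979116-4985323), was the member with the largest change. It measured 54.5, 60.1 and 62.1 CPM in vehicle replicates 1, 2 and 3 and 303, 303 and 307 CPM in TGF-beta replicates 1, 2 and 3. The libraries of each condition lay close together and the conditions were far apart. The rise was 5.17-fold, or 2.37 on the log2 scale (SE 0.05, 95% interval 2.25 to 2.49, adjusted p = 6.68e-10 in the edgeR quasi-likelihood fit). By p it ranked 16th of 20992 genes, and by size of rise 202nd. Its log2 fold change was 2.13 to 2.41 over the 14 alternatives, and 2.32 without vehicle replicate 1.

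The antisense gene BHLHE40-AS1 starts at the same locus on the opposite strand. It rose as well, with a log2 fold change of 2.16 and mean levels of 1.28 ± 0.182 CPM under vehicle and 5.72 ± 0.357 CPM under TGF-beta (SD, n = 3). Its exons share only 4 bases with those of BHLHE40 in GENCODE 29, and its counts over the 6 libraries came to 1.94% of those of BHLHE40. The strand setting of the counting is not known here, and the part of BHLHE40 reads in the BHLHE40-AS1 count was not tested.

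BHLHE41 (ENSG00000123095, chr12:26120026-26125127), which encodes the close relative of the BHLHE40 protein, was scarce and was not called. It measured 2.10, 2.85 and 2.53 CPM in vehicle replicates 1 to 3 and 2.13, 2.96 and 2.04 CPM in TGF-beta replicates 1 to 3, from 76 to 160 reads per library. The ranges of the conditions overlapped almost fully. The log2 fold change was -0.07 (95% interval -0.46 to 0.32, adjusted p = 0.791), an interval that lies wholly below that of BHLHE40. SSPN, on the opposite strand, shares 162 exon bases with BHLHE41 and had nearly as many counts (97.0% of its total), so some BHLHE41 reads may belong to SSPN.

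ARNTL, the activator gene (ENSG00000133794, chr11:13276652-13387266), rose, while its partner gene CLOCK was not called. ARNTL measured 15.9, 9.66 and 9.68 CPM in vehicle replicates 1 to 3 and 33.6, 32.6 and 32.5 CPM in TGF-beta replicates 1 to 3. Vehicle replicate 1 was well above the other vehicle libraries, yet below every TGF-beta library. The rise was 2.82-fold, a log2 fold change of 1.495 (SE 0.21, 95% interval 0.97 to 2.02, adjusted p = 0.0032 in the edgeR quasi-likelihood fit), and 1.77 without vehicle replicate 1. On log2(RPKM + 1), a scale that understates changes of low genes, the value was 0.78.

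CLOCK (ENSG00000134852, chr4:55427903-55547138), which encodes the partner that also acetylates histones, measured 50.6, 47.8 and 41.8 CPM in vehicle replicates 1 to 3 and 44.4, 43.8 and 41.4 CPM in TGF-beta replicates 1 to 3. The TGF-beta libraries lay within or at the lower edge of the vehicle range. Its log2 fold change was -0.11 (95% interval -0.26 to 0.04, adjusted p = 0.224). Without vehicle replicate 3, the lowest of the vehicle libraries, it was called lower at -0.19 (adjusted p = 0.0314 in the edgeR quasi-likelihood fit), and with library totals alone at -0.24 (adjusted p = 0.0165). TMEM165, on the opposite strand, had more counts than CLOCK but shares only 76 exon bases with it.

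Of the period genes, whose proteins carry the repressor complex, PER3 fell and PER2 was not called. PER3 (ENSG00000049246, chr1:7784320-7845177) measured 8.56, 10.6 and 10.97 CPM in vehicle replicates 1 to 3 and 7.58, 7.77 and 6.48 CPM in TGF-beta replicates 1 to 3. Every TGF-beta library was below every vehicle library, but vehicle replicate 1 was close to the highest TGF-beta library. The fall was 1.38-fold, a log2 fold change of -0.47 (SE 0.11, adjusted p = 0.00667 in the edgeR quasi-likelihood fit), and -0.57 without vehicle replicate 1. UTS2, on the opposite strand, shares 868 exon bases with PER3 and had 12.9% of its counts. RP3-467L1.4, also on the opposite strand, shares 482 exon bases with PER3 and had 7.08% of its counts.

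PER2 (ENSG00000132326, chr2:238244038-238290102) measured 7.77, 8.49 and 10.1 CPM in vehicle replicates 1 to 3 and 7.70, 7.79 and 7.69 CPM in TGF-beta replicates 1 to 3. The TGF-beta libraries were nearly equal and met the vehicle range at its lowest library, replicate 1. The log2 fold change was -0.19 (95% interval -0.41 to 0.03, adjusted p = 0.163). Without vehicle replicate 1 it was -0.26 and called lower (adjusted p = 0.0109 in the edgeR quasi-likelihood fit), as it was with library totals alone (-0.31, adjusted p = 0.0244). Without vehicle replicate 3 it was -0.08 (adjusted p = 0.572 in the edgeR quasi-likelihood fit). AC096574.4, on the opposite strand, shares 188 exon bases with PER2 and had 3.55% of its counts.

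The cryptochrome genes encode the direct repressors of the ARNTL and CLOCK pair. CRY1 (ENSG00000008405, chr12:106991364-107093829) measured 53.2, 40.1 and 40.1 CPM in vehicle replicates 1 to 3 and 74.6, 72.0 and 72.5 CPM in TGF-beta replicates 1 to 3. As for ARNTL, vehicle replicate 1 was the highest vehicle library and still below all TGF-beta libraries. CRY1 rose 1.65-fold, a log2 fold change of 0.72 (SE 0.11, adjusted p = 0.00231 in the edgeR quasi-likelihood fit), and 0.87 without vehicle replicate 1. RP11-797M17.1, an antisense gene on the opposite strand, shares 94 exon bases with CRY1 and had 3.12% of its counts. It was itself called higher (log2 0.77), and the part of shared reads in either count was not tested.

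CRY2 (ENSG00000121671, chr11:45847118-45883248) measured 12.2, 8.42 and 9.20 CPM in vehicle replicates 1 to 3 and 8.82, 9.71 and 9.47 CPM in TGF-beta replicates 1 to 3. The TGF-beta values lay between those of vehicle replicate 1 and vehicle replicate 2. Its log2 fold change was -0.08 (95% interval -0.38 to 0.21, adjusted p = 0.646) and turned to 0.09 without vehicle replicate 1, uncalled in each case. CRY2 therefore had no direction that was independent of 1 library.

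DBP and TEF, the PAR bZIP genes of clock output, fell. TEF (ENSG00000167074, chr22:41367333-41399326) had the largest fall of the members. It measured 11.8, 16.0 and 17.2 CPM in vehicle replicates 1 to 3 and 6.80, 6.38 and 7.90 CPM in TGF-beta replicates 1 to 3. All TGF-beta libraries lay well below the lowest vehicle library, again replicate 1. The fall was 2.14-fold, a log2 fold change of -1.10 (SE 0.15, 95% interval -1.45 to -0.75, adjusted p = 0.000664 in the edgeR quasi-likelihood fit), and -1.24 without vehicle replicate 1. RNU6-495P, on the opposite strand, lies within the bounds of TEF but shares 0 exon bases with it in GENCODE 29. On log2(RPKM + 1) the value was -0.56.

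DBP (ENSG00000105516, chr19:48630030-48637438) measured 7.49, 5.91 and 6.02 CPM in vehicle replicates 1 to 3 and 3.67, 3.46 and 3.41 CPM in TGF-beta replicates 1 to 3. The conditions did not overlap, and here vehicle replicate 1 was the highest library. DBP fell 1.84-fold, a log2 fold change of -0.88 (SE 0.12, adjusted p = 0.000181 in the edgeR quasi-likelihood fit), and -0.76 without vehicle replicate 1. It shares 661 of its 6544 exon bases with SPHK2, a sphingosine kinase gene on the opposite strand that had 452% of its counts. SPHK2 itself fell, from 26.5 ± 1.83 to 18.9 ± 1.19 CPM (log2 -0.48), and the part of its reads in the DBP count was not tested.

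**Figure D2:**
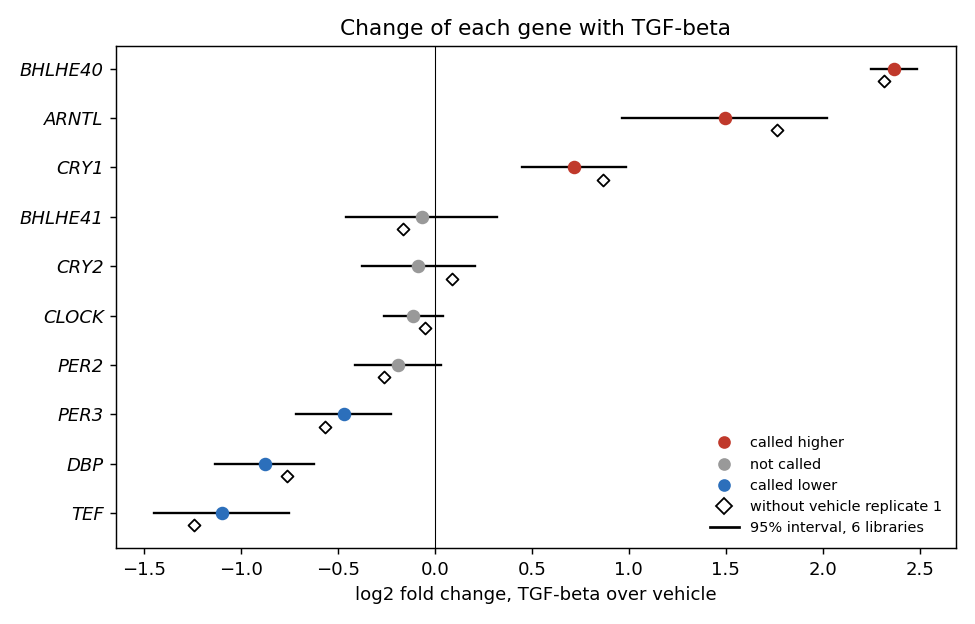
Log2 fold change of TGF-beta over vehicle for each gene (horizontal axis), with the 95% interval from the fit of 6 libraries as a line and the call as the colour of the point. Open diamonds give the value without vehicle replicate 1, which moved ARNTL from 1.495 to 1.77 and CRY2 from -0.08 to 0.09.

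Levels were compared between genes per gene length, on the authors' RPKM. In vehicle, BHLHE40 was the most abundant member at 6.73 ± 0.452 RPKM (mean ± SD, n = 3), followed by CRY1 at 3.85 ± 0.662, CLOCK at 1.74 ± 0.164 and TEF at 1.40 ± 0.264. The ranges of CLOCK and TEF overlapped, while BHLHE40, CRY1 and CLOCK were separate from each other. ARNTL (0.766 ± 0.235), CRY2 (0.704 ± 0.143), PER2 (0.561 ± 0.0776), PER3 (0.545 ± 0.0706) and DBP (0.434 ± 0.0599) formed a run in which each gene overlapped its next neighbour in RPKM, and BHLHE41 was lowest at 0.277 ± 0.0408.

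With TGF-beta, BHLHE40 stood at 32.8 ± 0.1001 RPKM and CRY1 at 5.96 ± 0.125. ARNTL, at 2.02 ± 0.0417 RPKM, was now above CLOCK, at 1.52 ± 0.0617, and their ranges were separate. TEF, at 0.615 ± 0.0657 RPKM, overlapped CRY2, at 0.622 ± 0.0303. DBP was lowest, at 0.222 ± 0.00934 RPKM, and overlapped BHLHE41, at 0.248 ± 0.0537. This order rests on the length of 6544 bases for DBP. In CPM, DBP was above BHLHE41 with TGF-beta, at means of 3.51 and 2.37.

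**Figure D3:**
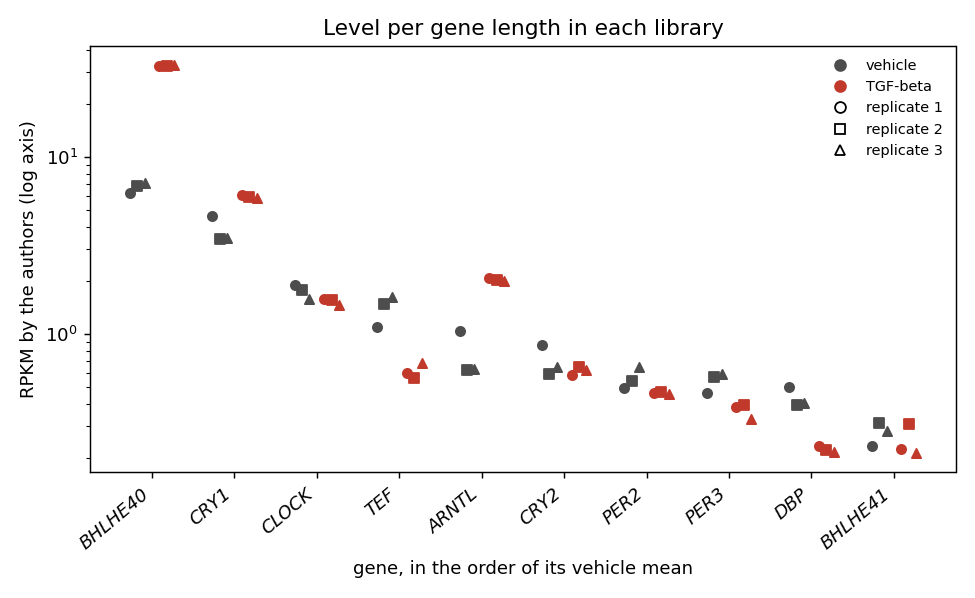
RPKM as deposited by the authors (vertical log axis) in each library, with genes ordered by their vehicle mean and a symbol per replicate. Per length, BHLHE40 is highest in each condition, and ARNTL passes from below CLOCK and TEF in vehicle to above them with TGF-beta.

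Ratios within a library do not depend on the scaling between libraries, and were taken for 5 pairs of genes of like role. The ratio of ARNTL to CLOCK per length was 0.428 in vehicle and 1.33 with TGF-beta, with log2 ratios of -0.86, -1.50 and -1.30 in vehicle replicates 1 to 3 and 0.40, 0.38 and 0.46 in TGF-beta replicates 1 to 3. Per length, CLOCK thus exceeded ARNTL in every vehicle library and was below it in every TGF-beta library. Not scaled by length, CLOCK stayed above ARNTL in TGF-beta replicates 1 to 3, at 44.4, 43.8 and 41.4 against 33.6, 32.6 and 32.5 CPM. The crossing therefore rests on the lengths used, 11762 bases for CLOCK and 6726 bases for ARNTL. BHLHE40 exceeded BHLHE41 by 24.5-fold in vehicle and by 134-fold with TGF-beta, and CRY1 exceeded CRY2 by 5.50-fold and 9.60-fold.

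PER2 and PER3 were close to equal in vehicle (ratio 1.03) and stood at 1.25 with TGF-beta. For these 4 pairs the log2 ratios did not overlap between vehicle and TGF-beta, and p was 0.1 for each in an exact permutation test (two-sided), which 3 against 3 libraries cannot go below (0.125 adjusted over the 5 pairs). Each of the 4 joins a called member to an uncalled one, so the separation is not independent of the calls. The share of all gene pairs that separate in this way was not computed. The ratio of DBP to TEF was 0.313 in vehicle and 0.362 with TGF-beta, with overlapping libraries (exact p = 0.6, adjusted 0.6). Their log2 ratio in vehicle replicate 1 (-1.13) was above those of replicates 2 (-1.91) and 3 (-1.99), since DBP was high and TEF low in that library.

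**Figure D4:**
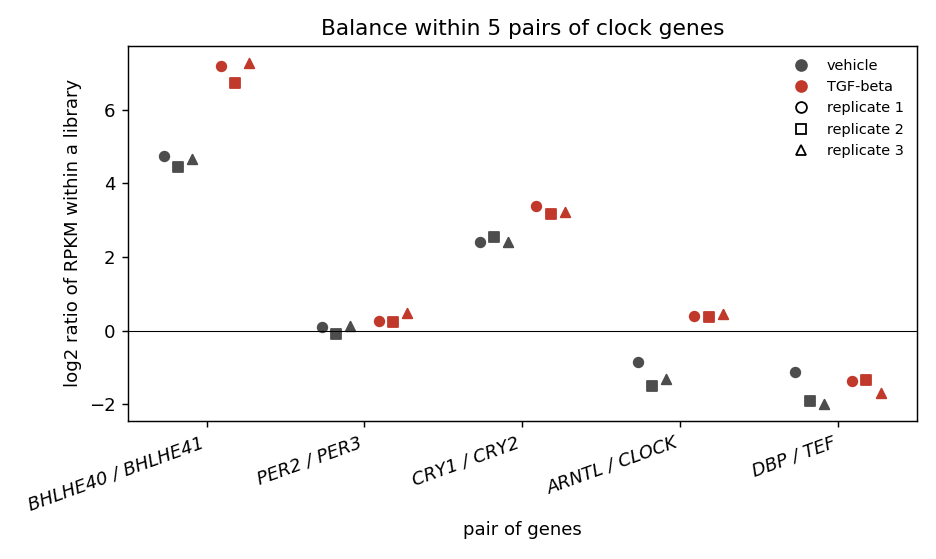
Log2 ratio of the RPKM of 2 genes within each library (vertical axis, 0 is equal level per length) for 5 pairs, in vehicle and TGF-beta libraries with a symbol per replicate. The ratio of ARNTL to CLOCK is below 0 in all vehicle libraries and above 0 in all TGF-beta libraries, and the ratio of DBP to TEF overlaps.

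Other genes of the loop were read from the same fit, from a list of 11 of which 10 were tested (RORB was too scarce). Of these, NPAS2 and NFIL3 rose, NR1D2, HLF and CIART fell, and PER1, ARNTL2, NR1D1, RORA and TIMELESS were not called, that is 5 of 10 called against 40.1% over all genes. The median log2 fold change of the 10 was -0.07. This list leaned on single libraries more than the 10 members did. The number called was 3 higher and 4 lower without vehicle replicate 1, 1 higher and 2 lower without vehicle replicate 2, and 2 higher and 2 lower without vehicle replicate 3. Without TGF-beta replicate 1, 2 or 3 it was 1 higher each time and 1, 0 and 1 lower.

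NPAS2, which encodes a bHLH-PAS protein that can stand in for CLOCK, measured 16.7, 14.5 and 13.3 CPM in vehicle replicates 1 to 3 and 21.0, 22.1 and 23.8 CPM in TGF-beta replicates 1 to 3. Its log2 fold change was 0.59 (SE 0.09, adjusted p = 0.000386 in the edgeR quasi-likelihood fit), and it was called in every alternative. ARNTL2, the relative of ARNTL, had a mean of 97.6 ± 3.24 CPM under vehicle and 96.7 ± 2.03 CPM under TGF-beta (SD, n = 3), with overlapping libraries. Its log2 fold change of -0.01 (95% interval -0.11 to 0.08) was not called. Per length it was above ARNTL in each condition, at 6.13 and 5.72 RPKM.

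Of the genes described here whose proteins act on ARNTL, NR1D2 was called lower and NR1D1 and RORA were not called. NR1D2, which encodes the repressor REV-ERB beta, measured 31.0, 59.5 and 61.7 CPM in vehicle replicates 1 to 3 and 22.2, 21.6 and 19.6 CPM in TGF-beta replicates 1 to 3. The spread within vehicle was wide, and the log2 fold change was -1.27 (SE 0.31, adjusted p = 0.0323 in the edgeR quasi-likelihood fit). That p was 0.0830 with the replicate number as a block, 0.0695 without a filter on low counts, and 0.0851 to 0.1003 without any 1 library other than vehicle replicate 1. Without vehicle replicate 1, the lowest vehicle library, NR1D2 was called lower at -1.52. NR1D1, which encodes REV-ERB alpha, was not called, at 7.73, 12.03 and 11.8 CPM in vehicle replicates 1 to 3 and 9.91, 9.27 and 9.86 CPM in TGF-beta replicates 1 to 3. It was called lower without vehicle replicate 1 (-0.30). RORA, a ROR activator gene, measured 1.27 ± 0.217 and 1.11 ± 0.168 CPM.

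Among genes acting at D-boxes, HLF, the third PAR bZIP gene, was scarce and fell from 1.04 ± 0.658 to 0.242 ± 0.109 CPM (mean ± SD, n = 3, log2 -2.09, adjusted p = 0.0274 in the edgeR quasi-likelihood fit, but 0.103 and 0.0980 without TGF-beta replicate 2 or 3). HLF was highest in vehicle replicate 1, at 1.79 CPM against 0.765 and 0.559 CPM in vehicle replicates 2 and 3, and without it the fall was smaller, at -1.49 on the log2 scale, and still called. NFIL3, which encodes the repressor that competes with the PAR bZIP factors for D-boxes, rose from 17.0 ± 3.30 to 23.3 ± 1.40 CPM. Its log2 fold change was 0.46 (adjusted p = 0.0256), and 0.62 without vehicle replicate 1. NFIL3 was not called without vehicle replicate 2 or without TGF-beta replicate 1, 2 or 3 (adjusted p = 0.0597 to 0.0893), with library totals alone (0.0782) or on log2 RPKM (0.0546 and 0.0556). CIART, a repressor gene of the loop, fell by 0.59 on the log2 scale (adjusted p = 0.0132, and 0.0600 and 0.0643 without TGF-beta replicate 1 or 2).

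PER1, per length the most abundant period gene (3.37 RPKM in vehicle and 6.69 RPKM with TGF-beta), turned on 1 library. It measured 98.6, 33.1 and 29.4 CPM in vehicle replicates 1 to 3 and 111, 113 and 117 CPM in TGF-beta replicates 1 to 3. The conditions did not overlap, yet vehicle replicate 1 was close to the TGF-beta libraries and far from the other vehicle libraries. PER1 was not called (log2 1.09, SE 0.56, adjusted p = 0.209 in the edgeR quasi-likelihood fit). Without vehicle replicate 1 it was called higher at 1.86, a fit whose small p rests on vehicle replicates 2 and 3 alone in that condition.

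**Figure D5:**
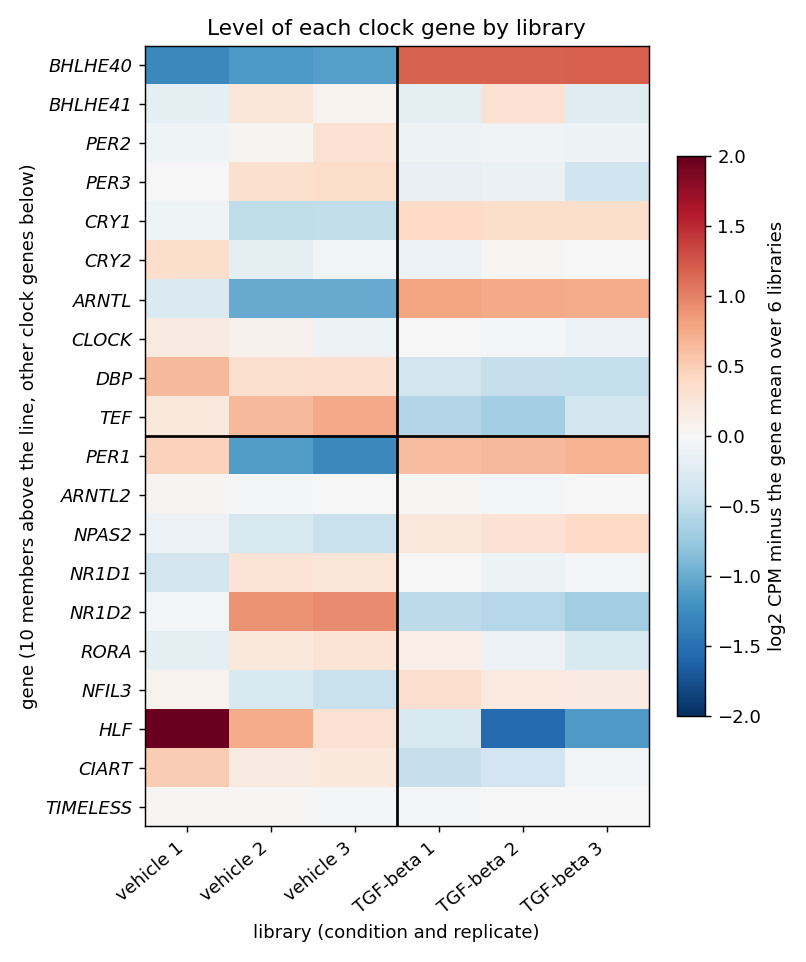
Log2 CPM minus the mean of the gene over the 6 libraries (colour) for the 10 members above the line and the 10 tested genes of the other clock list below it, by library. Vehicle replicate 1 differs from vehicle replicates 2 and 3 for PER1, NR1D2, ARNTL and HLF, while the TGF-beta libraries are alike for most genes.

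Vehicle replicate 1 differed from the mean of vehicle replicates 2 and 3 by over 1.25-fold for 7 of the 10 members. It was higher for ARNTL (1.64-fold), CRY2 (1.39-fold), CRY1 (1.33-fold) and DBP (1.26-fold), and lower for TEF (1.41-fold), BHLHE41 (1.28-fold) and PER3 (1.26-fold). For ARNTL, CRY1, TEF and PER3 it lay on the side of the TGF-beta libraries, and for DBP on the opposite side. This library differed as much for 13.5% of the 14750 tested genes whose mean was 2 CPM or more. Between vehicle replicates 2 and 3, a difference of over 1.25-fold was found for 0 of the 10 members and for 1.99% of those genes. The threshold was chosen after the values were seen, and these are descriptions without a test.

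Among 6 genes listed as rhythmic outputs, several that are also known glucocorticoid targets showed the same split within vehicle. KLF9, a Kruppel-like factor gene, measured 112, 29.5 and 26.8 CPM in vehicle replicates 1 to 3 and 75.1, 70.5 and 69.2 CPM in TGF-beta replicates 1 to 3. TSC22D3 measured 71.8, 21.2 and 22.1 CPM in vehicle replicates 1 to 3 against 48.5 to 52.5 CPM with TGF-beta, and FKBP5, a steroid receptor co-chaperone gene, 569, 204 and 194 CPM against 416 to 448 CPM. For each of these genes the TGF-beta libraries lay between vehicle replicate 1 and the other vehicle libraries, and none was called. Without vehicle replicate 1 all 3 were called higher, at 1.35, 1.23 and 1.11 on the log2 scale. USP2, a deubiquitinase gene of the modifier list, followed the same order, at 24.1, 5.32 and 5.13 CPM in vehicle replicates 1 to 3 and 8.78 to 9.70 CPM with TGF-beta. Its log2 value of -0.28 became 0.83, and called, without vehicle replicate 1. PDK4, another of the output genes, was also highest in vehicle replicate 1 (10.3 CPM against 4.04 and 5.17 CPM in replicates 2 and 3). Its TGF-beta libraries, however, lay below every vehicle library and not between them. The part of whatever sets this library apart in the changes of the clock genes was not tested.

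Of the other output genes, KLF10, known as an early gene of TGF-beta, rose from 51.8 ± 3.55 to 143 ± 1.57 CPM (mean ± SD, n = 3, log2 1.46). WEE1, the gene of a mitotic kinase under E-box control, rose by a small step, from 37.02 ± 0.736 to 41.1 ± 2.03 CPM (log2 0.15, adjusted p = 0.0367 in the edgeR quasi-likelihood fit). WEE1 was not called when replicate 2 or 3 of vehicle or replicate 1 or 2 of TGF-beta was left out (adjusted p = 0.0767 to 0.127), with library totals alone (0.724), without a filter on low counts (0.0523), with DESeq2 (0.0579), or on log2(RPKM + 1) or log2(RPKM + 0.1) (0.402 and 0.3997). PDK4 measured 10.3, 4.04 and 5.17 CPM in vehicle replicates 1 to 3 and 2.97, 1.81 and 1.91 CPM in TGF-beta replicates 1 to 3, and was not called (adjusted p = 0.054 in the edgeR quasi-likelihood fit), though it was called lower without vehicle replicate 1 or 2, with the replicate number as a block, with library totals alone (0.0398), with the filter of 1 CPM in 3 libraries (0.0399) and with DESeq2 (0.00452). In all, 2 of the 6 were called, each higher, against 40.1% of all genes called and 19.7% called higher.

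Genes for enzymes and partners that act on clock proteins were called about as often as genes at large. Of 15 listed genes 14 were tested (FBXL21 was at or near 0), with 2 higher, 4 lower and 8 uncalled, that is 6 of 14 against 40.1% over all genes. CSNK1D, which encodes a kinase that marks PER proteins, rose from 260.2 ± 12.3 to 304 ± 11.9 CPM (mean ± SD, n = 3, log2 0.22) and the deubiquitinase gene USP7 by 0.18 on the log2 scale. Neither was called with library totals alone (log2 0.10 and 0.06), on log2(RPKM + 1) or on log2(RPKM + 0.1). PRKAA2, a catalytic subunit gene of the AMP-activated kinase that marks CRY proteins, fell from 14.2 ± 1.99 to 7.74 ± 0.204 CPM (log2 -0.88, adjusted p = 7.86e-05 in the edgeR quasi-likelihood fit). NAMPT (-0.28), BTRC (-0.19) and PRKAA1 (-0.14) fell by less. NAMPT was not called without any of TGF-beta replicates 1, 2 and 3. BTRC was not called when replicate 2 or 3 of either condition was left out, nor with DESeq2 (adjusted p = 0.0666). PRKAA1 was not called without any 1 library other than vehicle replicate 1. It was also not called with RLE factors (adjusted p = 0.0552 in the edgeR quasi-likelihood fit) or with DESeq2 (adjusted p = 0.0907). CSNK1E (-0.01), which encodes a kinase related to that of CSNK1D, was not called. Over the alternatives the list ran from 0 to 4 called higher and from 1 to 8 called lower.

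The bHLH-PAS relatives of ARNTL and CLOCK, which share or compete for partners, were called in 4 of 5 cases, against 40.1% of all genes tested. HIF1A, the hypoxia-inducible factor gene, rose from 750.1 ± 83.9 to 1178 ± 28.2 CPM (mean ± SD, n = 3, log2 0.65) and EPAS1 from 122.9 ± 17.0 to 255 ± 1.88 CPM (log2 1.05). ARNT, the relative of ARNTL that pairs with them, rose by 0.30 on the log2 scale, and these 3 were also called in every alternative. AHR, the aryl hydrocarbon receptor gene, fell from 197 ± 21.0 to 89.5 ± 0.743 CPM (log2 -1.14), and ARNT2 was not called (0.06).

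The genes whose pattern over the 6 libraries was most like that of BHLHE40 were WNT5B, FURIN, KRT17, DIXDC1 and COL1A2, out of 11370 protein-coding candidates with 5 CPM or more on average. Likeness was the root-mean-square distance of log2 CPM centred on the vehicle mean, which ran from 0.0482 for WNT5B to 0.0755 for COL1A2. With 2 conditions such likeness mainly reflects the size of the change. WNT5B measured 16.6, 17.7 and 17.5 CPM in vehicle replicates 1 to 3 and 84.1, 86.4 and 90.0 CPM in TGF-beta replicates 1 to 3. FURIN, the gene of a protease that matures TGF-beta among other proproteins, measured 57.7, 65.9 and 67.0 CPM and 301, 315 and 336 CPM in the same order.

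For TEF, the member with the largest fall, the nearest genes were HS6ST1, RAC2, RPH3AL, CD97 and LPAR1. HS6ST1, a heparan sulfate sulfotransferase gene, was closest at a distance of 0.0169, with 19.0, 26.4 and 27.5 CPM in vehicle replicates 1 to 3 and 11.1, 10.4 and 12.9 CPM in TGF-beta replicates 1 to 3. Vehicle replicate 1 was the lowest vehicle library for each of these 5 genes, as it was for TEF. The distance took in every library, vehicle replicate 1 included, so this follows from how the genes were picked and is no further result.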

How the data were processed

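RNA sequencing of 6 H69 libraries was analysed from 1 deposited table of 64253 genes. Per the submitters' processing notes, the tools were bcl2fastq, STAR 2.6.1 and featureCounts of Subread, and the build was hg38. The deposited count values are raw whole reads for each gene. RPKM was computed by the authors, per the file headers. Strand setting, treatment of multi-mapped reads and the annotation release are not given in the sources used here, and gene bounds and exon lengths of the 10 members equal those of GENCODE 29. Counts were fitted in R 4.3.3 with edgeR 4.0.16 (TMM, filterByExpr with a minimum count of 10, robust quasi-likelihood test, no block), with Benjamini-Hochberg adjustment over the 20992 genes tested and calls at an adjusted p under 0.05. Standard errors were taken as the log2 value over the root of F. The steps were tested on simulated data. The common biological coefficient of variation was 7.88%. Alternatives were RLE factors, library totals, no filter, a filter of 1 CPM in 3 libraries, DESeq2 1.42.0, limma 3.58.1 on log2(RPKM + 1) and log2(RPKM + 0.1) where mean RPKM reached 0.5, the replicate number as a block, and each library left out. All members, the further lists (other clock genes, modifiers, output genes, bHLH-PAS relatives, treatment check, cell type markers) and the rule for like genes (the 5 nearest per pattern) were chosen with earlier results of these data known. Named genes are the members, genes of these lists, genes overlapping members and the like genes. In every pair of replicates the counts differed beyond sampling noise (chi-square over its degrees of freedom was 2.48 or more), and none was treated as a duplicate. Several genes of the further lists are not reported here and were left out of the lists' counts.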

Additional observations from a re-analysis of the deposited data

How the results depend on the processing

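The 6 called members kept their direction and call under every alternative in which they were tested (12 to 14 each), and BHLHE41, PER3 and DBP were below the RPKM minimum of the limma fits. With library totals alone, which shifted the median of all genes to -0.14, 2698 genes were higher and 7282 lower (49.2% of calls were higher with TMM, and here about 27%), 5 members were lower with PER2 at -0.31 and CLOCK at -0.24 called, 1 other clock gene was higher and 5 lower, and 0 modifiers were higher and 8 lower. On log2(RPKM + 1) and log2(RPKM + 0.1), 2419 and 2411 genes were higher, 1 member was lower, 1 other clock gene was higher and 2 lower, and 0 modifiers were higher and 8 lower. DESeq2 called 2 modifiers lower. Leaving out 1 library at a time gave 1 to 3 other clock genes higher and 0 to 4 lower, 2 to 4 modifiers higher and 1 to 4 lower, and log2 values of -0.26 to 0.043 for BHLHE41, -0.26 to -0.075 for PER2, -0.19 to 0.088 for CRY2 and -0.19 to -0.053 for CLOCK. Of these, BHLHE41 turned sign without vehicle replicate 2 (0.043), TGF-beta replicate 1 (0.0063) and TGF-beta replicate 3 (0.034), and CRY2 without vehicle replicate 1 (0.088). Among uncalled genes of the other lists, ARNTL2 ran from -0.033 to 0.012 with 1 library left out, CSNK1E from -0.074 to 0.040, with 0.0013 under RLE factors and 0.0012 under DESeq2, and USP2 from -0.64 to 0.83. With library totals, log2(RPKM + 1) and log2(RPKM + 0.1), GSK3B turned to -0.059, -0.012 and -0.013 and DDB1 to -0.092, -0.047 and -0.051, and ARNT2 turned to -0.064 with library totals. TMM factors, which the fit on library totals leaves out, were 1.04 to 1.05 in vehicle libraries and 0.951 to 0.961 in TGF-beta libraries. The cause of these changes of sign was not tested. With the replicate number as a block, 4247 genes were higher and 4330 lower, and the 10 members had the same calls (BHLHE40 at 2.37, ARNTL at 1.52, TEF at -1.09). USP2 turned to 0.051 with the block and to 0.83 without vehicle replicate 1. Deviations of same-numbered libraries correlated at 0.0652, 0.0623 and 0.0129 for replicates 1, 2 and 3, and those of unlike numbers at -0.0702 to 0.0136. The values of replicates 1 and 2 were thus above those of all unlike pairs, and that of replicate 3 was not. All were small, and the labels state no pairing, so the main fit had no block. Whether libraries of the same number were handled together was not tested.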
